A study of Mus musculus with 7 samples.

Results

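The genes described here are 10 members of the MHC class I and immunoproteasome system of the mouse: the heavy chain genes H2-K1, H2-D1, H2-Q4 and H2-T23, the light chain gene B2m, the peptide transporter genes Tap1 and Tap2, and the inducible proteasome subunit genes Psmb8, Psmb9 and Psmb10. They were listed by symbol, with earlier results of these data known, so their calls are no independent evidence of direction. All 10 were found among the 27998 genes of the deposited single-cell count matrices. The study profiled adult skeletal muscle and its stem cells (muscle satellite cells, MuSC) at rest, after injury and in culture, with 7 droplet libraries of wild-type mice whose strain is written C56BL/6J. Total muscle (2 libraries) holds the live cells of hindlimb muscles of 3-month-old mice. Homeostatic MuSC (2 libraries) were satellite cells purified by cell sorting from uninjured muscle, and injured MuSC (2 libraries) were sorted 60 h after an injection of notexin (2 µM), a snake venom toxin that destroys muscle fibres. The primary myoblast library (1 library) came from satellite cells of 3-month-old mice grown for 4 to 5 passages on collagen-coated plates in a medium with 10% horse serum and bFGF (2.5 ng/µl). No age is given for the homeostatic and injured groups, and nothing says whether libraries of a group came from separate animals, so p-values measure the spread between these libraries.

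Class I molecules carry short peptides made inside the cell to its surface, where CD8 T cells and natural killer cells read them. A polymorphic heavy chain (H2-K1 and H2-D1) or a non-classical one (H2-Q4 and H2-T23) pairs with B2m, and Tap1 and Tap2 form the pump that brings peptides into the endoplasmic reticulum to be loaded. Psmb8, Psmb9 and Psmb10 are the catalytic subunits that replace Psmb5, Psmb6 and Psmb7 when the immunoproteasome is assembled, and interferons are the textbook inducers of most of these genes. Resting adult muscle fibres are known for little class I on their surface.

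In the GRCm38 assembly with GENCODE M21 annotation, 8 of the 10 genes lie in the MHC region of chromosome 17. Psmb9 (34181987 to 34187764, minus strand), Tap1 (34187553 to 34197225, plus), Psmb8 (34197721 to 34201454, plus) and Tap2 (34203527 to 34216321, plus) lie side by side. H2-K1 lies at 33996017 to 34000347 (minus), H2-D1 at 35262730 to 35267499 (plus), H2-Q4 at 35379617 to 35385290 (plus) and H2-T23 at 36029773 to 36032855 (minus). B2m lies on chromosome 2 at 122147686 to 122153083 (plus) and Psmb10 on chromosome 8 at 105935735 to 105938444 (minus). Tap1 overlaps Psmb9 at their start sites, and B2m overlaps Patl2. H2-Q4 overlaps Gm11131, H2-T23 overlaps A930015D03Rik and Psmb10 overlaps Gm16156. Psmb8 overlaps Gm20496, and Tap2 overlaps Gm15821 and Gm20496. All of these genes are in the count matrices, and what the overlaps cost in reads was not tested.

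The 250 bases before the start site are shown for 3 members, from RefSeq on GRCm38.p6. They are 2 heavy chains and the light chain, whose levels moved by very different amounts after injury. Each window lies upstream of the GENCODE gene, but for the last base of the B2m window. They are written 5′ to 3′ on the gene's strand, and capitals mark a match to 1 of 2 motifs. They are the NF-kB site of class I genes, whose 10 letters stand in capitals in the H2-K1 window, and an interferon response core, GAAA, any 2 bases, GAAA.
H2-K1, chr17:34000348-34000597, minus strand: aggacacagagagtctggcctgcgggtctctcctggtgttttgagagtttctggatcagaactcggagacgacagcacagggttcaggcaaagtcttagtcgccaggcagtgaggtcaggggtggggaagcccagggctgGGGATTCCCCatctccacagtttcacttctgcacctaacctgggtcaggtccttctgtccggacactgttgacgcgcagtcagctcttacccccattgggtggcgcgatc
H2-Q4, chr17:35379367-35379616, plus strand: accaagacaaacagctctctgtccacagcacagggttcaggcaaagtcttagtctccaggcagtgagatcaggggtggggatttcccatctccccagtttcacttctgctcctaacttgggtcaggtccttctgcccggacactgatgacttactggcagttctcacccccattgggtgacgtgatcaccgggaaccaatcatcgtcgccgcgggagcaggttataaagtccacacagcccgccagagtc
B2m, chr2:122147437-122147686, plus strand: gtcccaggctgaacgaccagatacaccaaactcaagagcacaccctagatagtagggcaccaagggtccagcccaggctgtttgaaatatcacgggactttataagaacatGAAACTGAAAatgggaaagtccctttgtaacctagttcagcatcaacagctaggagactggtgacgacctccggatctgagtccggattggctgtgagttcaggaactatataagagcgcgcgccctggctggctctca
The H2-K1 window holds the NF-kB letters at -110 to -101 from the start site, and the B2m window holds the interferon letters at -139 to -130. H2-D1 has the same NF-kB letters at -170 to -161, and H2-T23 has the interferon core on the minus strand at -124 to -115. These positions count from the RefSeq start site. The windows of H2-D1, Psmb8 and Psmb9 lie within the GENCODE gene positions given above, and those of H2-T23, Tap1 and Psmb10 overlap theirs in part. The H2-Q4 window holds neither run of letters exactly. Only these exact letters were searched, so looser forms of either motif can stand unmarked in any window. Also searched were a GAS core (TTCNNNGAA), a CCAAT box (CCAAT) and a cAMP response core (TGACG): Psmb8 alone of the 9 members with an entry has the GAS core, and the Psmb10 window has no match to any of the motifs. On both strands of 32851 promoter windows of this length, 0.0852% hold the NF-kB letters, 2.98% the interferon core, 7.02% the GAS core, 33.8% the CCAAT box and 17.8% the cAMP response core. A match is a run of letters and not a measured binding site.

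Values are counts of unique molecular identifiers (UMI, 1 per captured transcript) summed over cells, or counts per 1000000 (CPM) of such a sum. Cells were assigned to a type from marker genes, none of which is a member, and types are named X-like for that reason. Myogenic-like cells numbered 77 and 109 in total muscle, 1410 and 1267 in the homeostatic, 1193 and 1852 in the injured and 4392 in the myoblast library. Their summed depth ran from 271668 UMIs in total muscle 1 to 113735824 in the myoblast library. Of their 15 own markers, 13 to 15 were detected in each library. In an unsupervised clustering, no cluster joined myogenic-like cells of the injured or myoblast libraries with those of the total muscle or homeostatic libraries. The 2 injured libraries also shared 251 cell barcodes, against 1 to 16 in other pairs, and the cells with these barcodes had a median of 10175 UMIs in injured 1 and 955 in injured 2. The edgeR tests of injured cells, the subunit shares and the macrophage-like ratios were therefore also computed without these barcodes.

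Satellite cells at rest carried class I transcripts at a level well above those of injured and cultured cells. H2-K1, a classical heavy chain, stood at 529.6 and 579.9 CPM in the homeostatic libraries, 21.9 and 18.8 in the injured libraries and 13.9 in the myoblast library. H2-D1, the other classical heavy chain, stood at 1147 and 1278 CPM, then 74.9 and 50.8, then 39.6. H2-Q4, a non-classical heavy chain of the Q region, stood at 353 and 365 CPM, then 3.04 and 2.95, then 0.246. For all of them, both homeostatic libraries lay above both injured libraries with no overlap, and the myoblast library lay lowest. The H2-Q4 sums in the injured and myoblast libraries rest on 27, 19 and 28 UMIs.

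H2-T23 encodes Qa-1, the ligand of the CD94/NKG2A receptor of natural killer cells, and it took the other direction. Its level was 13.2 and 11.7 CPM in the homeostatic libraries, 35.5 and 33.4 in the injured libraries and 0.457 in the myoblast library, so that the injured libraries were the highest and the myoblast library the lowest. B2m, the shared light chain, stood at 598 and 768 CPM in homeostatic, 159.7 and 121 in injured and 255 in myoblast cells. Its level in the myoblast library lay between those of the other groups.

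The transporter gene Tap1 stood at 23.3 and 30.2 CPM in homeostatic, 0.900 and 0.311 in injured and 6.87 in myoblast cells, the injured values resting on 8 and 2 UMIs. Tap2 stood at 46.0 and 48.4 CPM, then 5.29 and 5.28, then 5.36. The injured and myoblast libraries thus differed for Tap1 and lay within 0.1 CPM of each other for Tap2.

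The inducible subunits split. Psmb8 (the counterpart of Psmb5) stood at 17.3 and 26.0 CPM in homeostatic, 3.71 and 3.26 in injured and 3.39 in myoblast cells. Psmb9 (the counterpart of Psmb6) was sparse at 5.08 and 9.41, then 2.25 and 0.466, then 0.994 CPM. Psmb10 (the counterpart of Psmb7) stood at 12.6 and 8.11 CPM in homeostatic, 99.7 and 99.4 in injured and 45.5 in myoblast cells. For Psmb8 and Psmb9 both homeostatic libraries lay above the injured and myoblast libraries, and the myoblast value lay between the 2 injured values. For Psmb10 both injured libraries lay above all others, and the myoblast value lay between the injured and homeostatic ones.

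**Figure D1:**
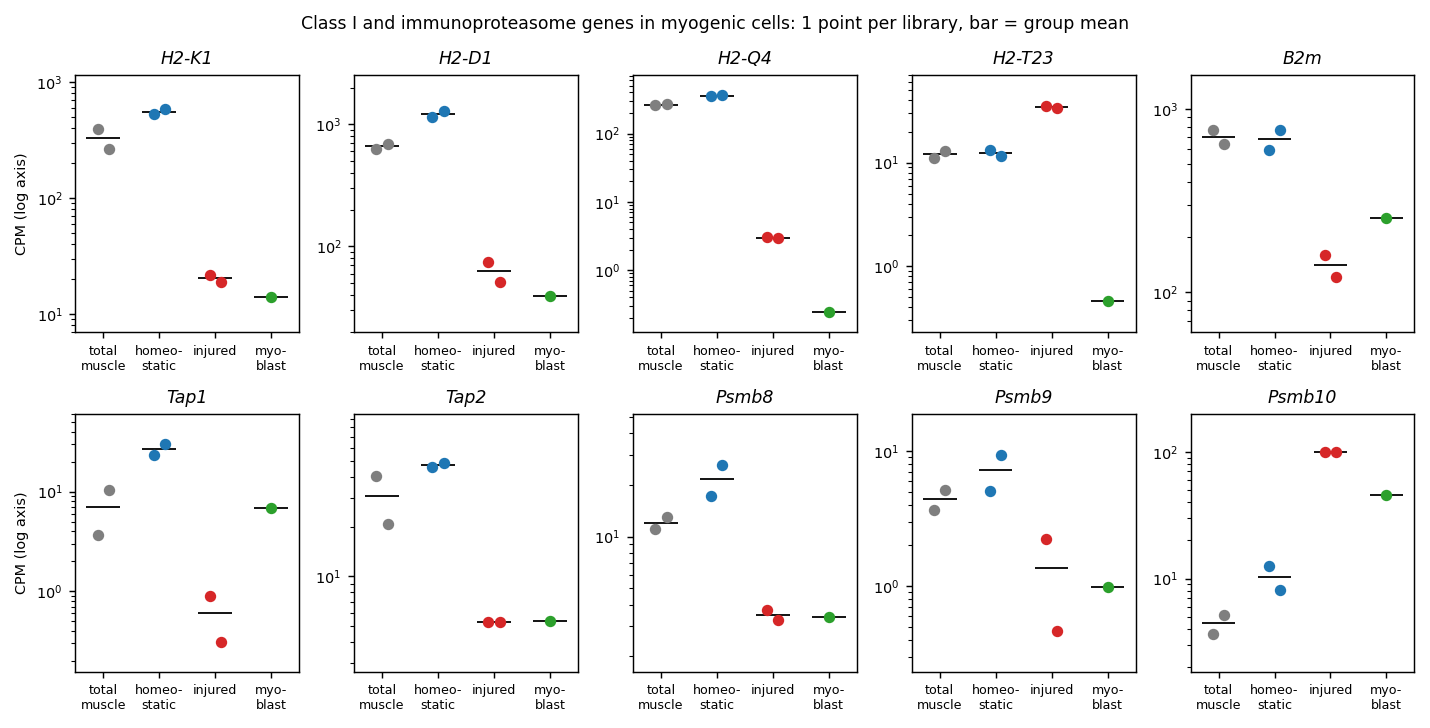
CPM of each member in summed myogenic-like cells (log axis), 1 point per library, with a bar at the group mean. The H2-K1, H2-D1, H2-Q4, Tap1 and Tap2 points of the injured libraries lie far below those of the homeostatic libraries, and those of H2-T23 and Psmb10 lie above them.

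Injured against homeostatic satellite cells asks how the system differs 60 h after damage. In edgeR's quasi-likelihood test over 10587 genes, 8 of the 10 members fell and 2 rose at an adjusted p under 0.05. Over all genes tested, 37.0% fell and 38.5% rose, so a call by itself is common in this comparison. The members' median log2 change was -2.58, against 0.03 over all genes. With no scaling, the median over all genes was -0.27.

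Among the heavy chains, H2-Q4 fell furthest, from a mean of 359 ± 8.59 to 2.99 ± 0.0604 CPM (SD, n = 2 libraries a group). Its log2 change was -6.59 ± 0.20 (SE; edgeR adjusted p = 5.47e-13). H2-K1 fell from 555 ± 35.6 to 20.4 ± 2.22 CPM, a log2 change of -4.46 ± 0.17 (edgeR adjusted p = 3.19e-12). H2-D1 fell from 1213 ± 92.6 to 62.9 ± 17.1 CPM, a log2 change of -3.96 ± 0.19 (edgeR adjusted p = 3.76e-11). These genes resemble each other near their 3′ ends, where the libraries were read: H2-K1 and H2-D1 each had 6 other genes with a near-identical stretch, so reads could be split or lost between them. The sum of 19 class I genes, which holds all heavy chain members and most of these copies, fell by 3.80 ± 0.16 on the log2 scale. It stood at 2068 and 2266 CPM in homeostatic and at 142 and 110.3 CPM in injured cells. H2-T23 rose from 12.4 ± 1.04 to 34.5 ± 1.52 CPM, a log2 change of 1.77 ± 0.21 (edgeR adjusted p = 1.66e-06). A stretch of its 3′ end recurs in 48 other genes, all but 1 off chromosome 17, and the values of H2-T23 and H2-Q4 (15 such genes) are uncertain by what this costs in reads.

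B2m fell by 1.98 ± 0.17 on the log2 scale (edgeR adjusted p = 3.5e-08). This was less than either classical heavy chain, and the ratio of the 2 kinds of transcript moved with it. There were 1.92 and 1.66 H2-D1 UMIs per B2m UMI in the homeostatic libraries, 0.469 and 0.420 in the injured libraries and 0.155 in the myoblast library. For H2-K1 the same ratio was 0.886 and 0.755, then 0.137 and 0.156, then 0.0546. Transcripts of these 2 heavy chains were therefore fewer per light chain transcript in every injured and cultured library than in either homeostatic library. Without the shared barcodes the injured ratios were 0.480 and 0.417 for H2-D1 and 0.139 and 0.156 for H2-K1. Myogenic-like cells of total muscle lay between the homeostatic and injured values, at 0.822 and 1.08 for H2-D1 and 0.519 and 0.417 for H2-K1. Macrophage-like cells had H2-D1 ratios of 1.13 and 1.11 in total muscle and 0.442 and 0.333 in the injured libraries. Their H2-K1 ratios were 0.276 and 0.259, then 0.149 and 0.235.

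Both transporter genes were lower: Tap1 fell by 5.02 ± 0.37 (edgeR adjusted p = 5.84e-09) and Tap2 fell by 2.85 ± 0.22 (edgeR adjusted p = 7.67e-09) on the log2 scale. Of the inducible subunits, Psmb8 fell by 2.31 ± 0.28 (edgeR adjusted p = 1.95e-06) and Psmb9 fell by 1.97 ± 0.51 (edgeR adjusted p = 0.00247). Psmb10 rose from 10.3 ± 3.14 to 99.6 ± 0.167 CPM, a log2 change of 3.55 ± 0.21 (edgeR adjusted p = 4.4e-10). All 10 members stayed on the same side of the threshold, with the same sign, in every alternative in which they were tested, leaving out the shared barcodes included. The values of the sparse genes depended on 1 library. Without injured 1, the log2 change of Psmb9 was -3.56 and that of Tap1 -6.00, and without injured 2 that of Psmb9 was -1.34.

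**Figure D2:**
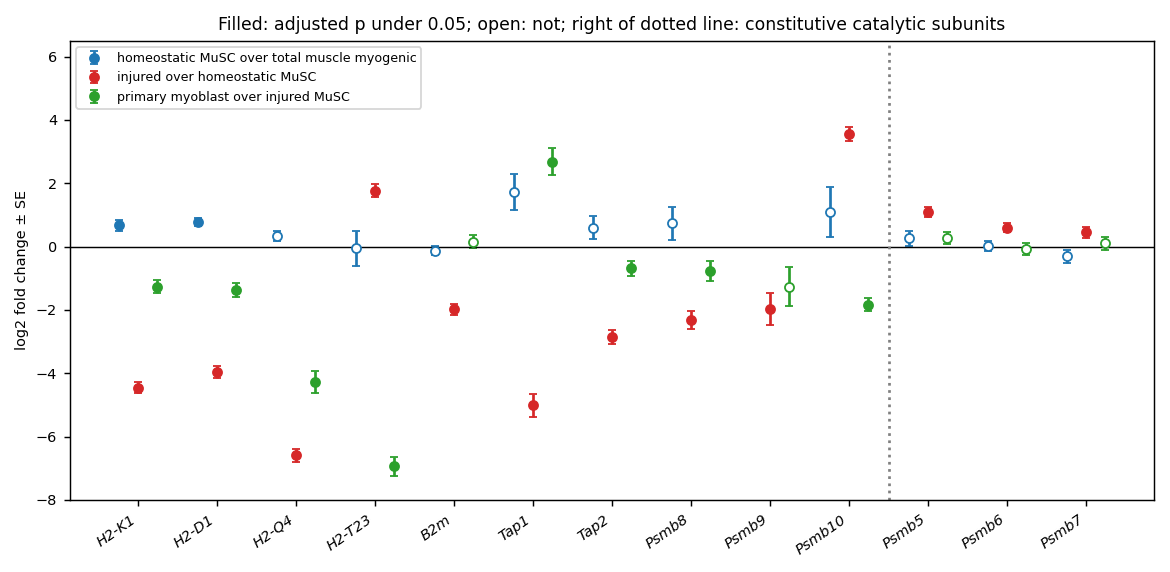
Log2 change with its SE for the 10 members and, right of the dotted line, the constitutive subunits Psmb5, Psmb6 and Psmb7, in the comparison of homeostatic MuSC with total muscle, of injured with homeostatic MuSC and of myoblasts with injured MuSC. Filled points passed an adjusted p of 0.05. After injury H2-Q4 lies lowest at -6.59 and Psmb10 highest at 3.55.

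Psmb10 was set against the subunit that it replaces. Of the UMIs of Psmb10 and Psmb7 together, Psmb10 made up 8.25% (95% exact binomial interval 6.01% to 11%) and 4.87% (3.18% to 7.11%) in the homeostatic libraries. In the injured libraries it made up 34.3% (32.5% to 36.2%) and 41.7% (39.2% to 44.2%), and in the myoblast library 13.6% (13.2% to 13.9%). The share of Psmb8 among Psmb8 and Psmb5 went the other way, at 15.0% and 19.5% in homeostatic, 1.86% and 2.07% in injured and 0.966% in myoblast cells. For Psmb9 among Psmb9 and Psmb6 it was 1.60% and 2.55%, then 0.506% and 0.121%, then 0.155%. Without the shared barcodes, the injured shares were 35.1% and 41.9% for Psmb10, 1.6% and 2.2% for Psmb8, and 0.525% and 0.127% for Psmb9. The transcripts of the 3 inducible subunits thus did not move as a unit. These intervals cover counting error only, and the shares are of transcripts, not of assembled proteasomes.

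**Figure D3:**
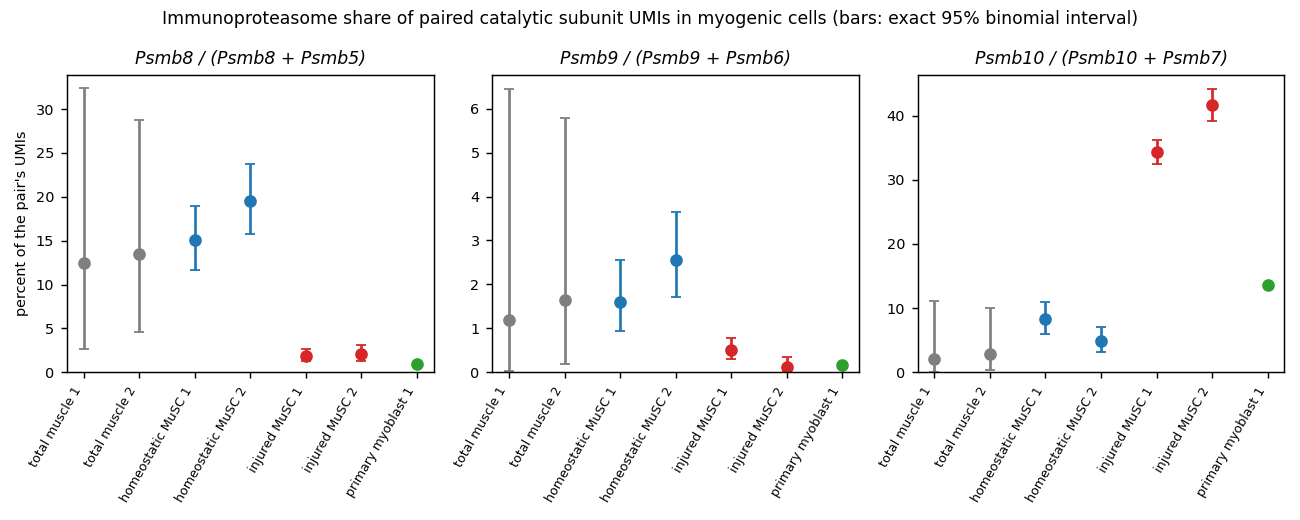
Percent of the UMIs of each pair (inducible plus constitutive subunit) that came from the inducible one, in myogenic-like cells, 1 point per library with its 95% exact binomial interval. The Psmb10 share is 34.3% and 41.7% in the injured libraries, and the Psmb8 share is 1.86% and 2.07% there.

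The other genes of the pathway were read from lists chosen with results of these data known, so they are no independent evidence of direction. All 3 constitutive catalytic subunits rose after injury, Psmb5 by 1.08 ± 0.16, Psmb6 by 0.60 ± 0.14 and Psmb7 by 0.45 ± 0.17 on the log2 scale (SE). With no scaling Psmb6 (0.30, edgeR adjusted p = 0.0642) and Psmb7 (0.15, edgeR adjusted p = 0.417) did not pass. Of 12 other genes of the 20S core and its assembly, 7 rose and 2 fell, where 38.5% of all genes rose and 37.0% fell. Psma7, a ring subunit, rose by 1.72 ± 0.14 and Psma3, another, fell by 0.55 ± 0.14. Of the 4 proteasome activator genes only Psme1 passed, with a log2 change of -0.55 ± 0.19, while its partner Psme2 had -0.28 ± 0.16 (edgeR adjusted p = 0.114). With no scaling Psme2 was lower as well (-0.58, edgeR adjusted p = 0.00321).

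In the list of peptide loading and trimming, 5 of 7 fell and 1 rose, where 37.0% of all genes fell and 38.5% rose. Pdia3, a thiol oxidoreductase of the loading complex, fell by 2.29 ± 0.15, and Calr, its chaperone partner, fell by 1.16 ± 0.14. Tapbp, which encodes tapasin, fell by 2.26 ± 0.22 on the log2 scale. Tapbpl, which encodes the tapasin-like peptide editor TAPBPR, rose by 3.37 ± 0.20, from 10.8 and 14.6 to 102 and 112 CPM, and stood at 4.47 CPM in myoblasts. Canx did not pass (0.20 ± 0.14, edgeR adjusted p = 0.217). Of the 7 other class I genes tested, 6 fell. Fcgrt, the heavy chain of the neonatal Fc receptor, fell by 4.32 ± 0.23, and H2-T22 fell by 0.85 ± 0.33, a call that was lost with DESeq2 (-0.87, adjusted p = 0.167).

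Of 16 genes of interferon signalling, NF-kB and class I regulation, 14 fell, with a median of -2.57, where 37.0% of all genes fell. Nfkb1, a subunit of NF-kB, fell by 3.62 ± 0.15 from 707 and 718 to 45.1 and 49.4 CPM. Rela, its partner, fell by 2.86 ± 0.18 and Jak1, a kinase of the interferon receptors, fell by 3.10 ± 0.15. Nlrc5, the transactivator of class I genes, fell by 3.84 ± 0.76 from low levels of 2.69 and 2.60 CPM. Irf1 did not pass, with a log2 change of -0.50 ± 0.29 (edgeR adjusted p = 0.122).

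Macrophage-like cells of the injured libraries were read to see whether the lower class I level was found in myogenic-like cells alone. The injured libraries held 24 and 22 macrophage-like cells (83906 and 49137 UMIs), and total muscle held 46 and 62. In the clustering, these cells of the 2 groups fell mainly in different clusters. H2-D1 stood at 953 and 549 CPM in the macrophage-like cells of the injured libraries, against 4219 and 3528 in those of total muscle. The ratio was 0.210 (95% counting interval 0.171 to 0.255). H2-K1 stood at 322 and 387 CPM against 1025 and 823 (ratio 0.379, 0.274 to 0.513), and B2m at 2157 and 1648 against 3719 and 3175 (ratio 0.577, 0.505 to 0.657). For H2-Q4, 1 UMI was found, against 101 in total muscle (ratio 0.0428, 0.00107 to 0.244), and for Tap1 0 against 22 (ratio at most 0.789). Lower H2-K1, H2-D1, H2-Q4, B2m and Tap1 in the injured libraries was thus also seen in macrophage-like cells, but against another baseline. The homeostatic libraries held 0 macrophage-like cells, so total muscle stands in for them here. Fibro-adipogenic-like cells, present in the homeostatic (17 and 10 cells) and injured libraries (5 and 16 cells), were not compared. What part a difference between the libraries, or between the macrophage-like cells of the 2 groups, has in these results was not tested.

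The other members that fell in myogenic-like cells had intervals that include 1 in the macrophage-like cells. Psmb8 stood at 179 and 102 CPM against 183 and 158 (ratio 0.891, 0.521 to 1.45). Tap2 stood at 23.8 and 40.7 CPM against 75.5 and 43.3 (ratio 0.524, 0.135 to 1.47), from 4 UMIs in the injured libraries. Psmb9 stood at 35.8 and 0 CPM against 43.7 and 27.9 (ratio 0.648, 0.123 to 2.19), from 3 UMIs. Without the shared barcodes, which left 23 and 22 macrophage-like cells, the ratios were 0.209 for H2-D1, 0.363 for H2-K1, 0.552 for B2m and 0.833 for Psmb8. The intervals of the 10 members lay on the same side of 1, or included it, as before.

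The 2 members that rose in myogenic-like cells looked otherwise in the macrophage-like cells. Psmb10 stood at 59.6 and 61.1 CPM in the injured and at 67.5 and 61.9 CPM in the total muscle libraries (ratio 0.934, 0.376 to 2.04). H2-T23 stood at 95.3 and 81.4 against 135 and 139 CPM (ratio 0.656, 0.325 to 1.21). Both intervals include 1. In injured libraries, the Psmb10 level of myogenic-like cells was 1.66 times (0.838 to 3.84) that of macrophage-like cells, and in total muscle 0.0709 times (0.0140 to 0.224). For H2-K1 the corresponding ratios were 0.0596 (0.0437 to 0.0831) and 0.352 (0.299 to 0.414).

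**Figure D4:**
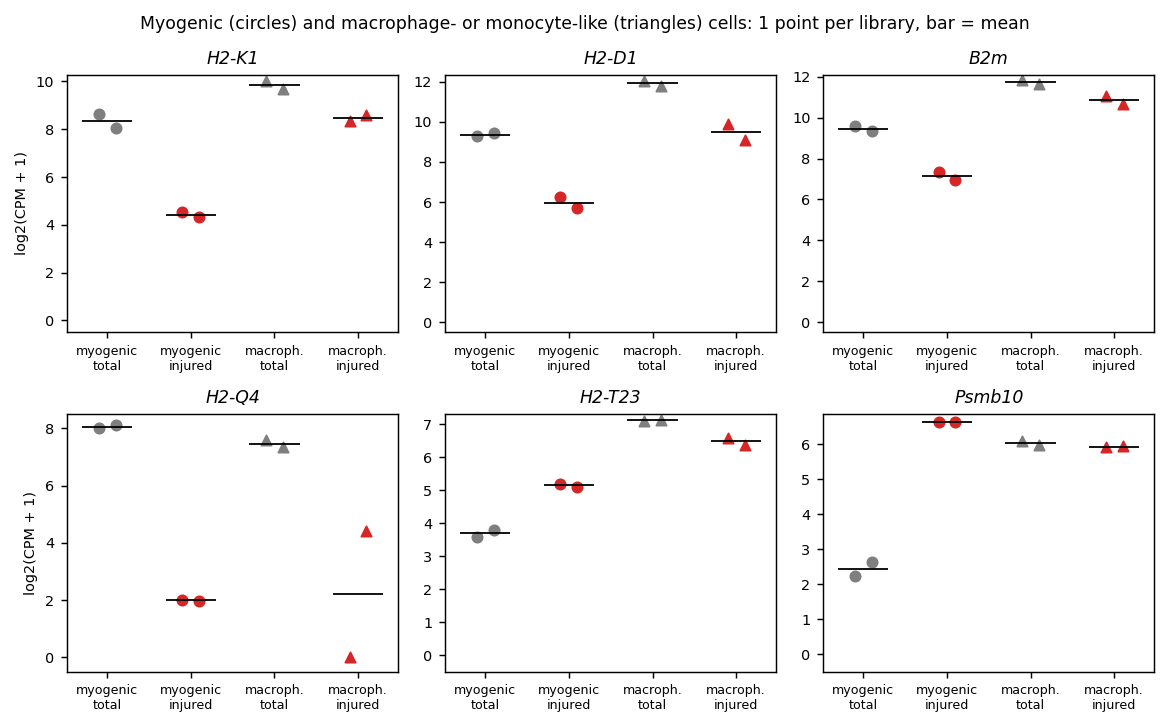
Log2(CPM + 1) of 6 members in myogenic-like cells (circles) and macrophage-like cells (triangles) of total muscle (grey) and injured libraries (red), 1 point per library. The macrophage-like points of H2-K1, H2-D1, H2-Q4 and B2m are lower in the injured libraries, and those of Psmb10 lie near each other.

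Within the injured libraries, cells with a UMI of Myog, a transcription factor of myogenic differentiation, were set against cells without one. They were 204 of 1193 cells (17.1%) in injured 1 and 369 of 1852 (19.9%) in injured 2. None of the 8 members tested passed in edgeR with library as a block, with 3.49% of all genes higher and 1.73% lower in this comparison. At an unadjusted p under 0.05, edgeR counted 2 higher and 2 lower, and DESeq2 counted 0 in each direction. The nearest were Tap2, with a log2 difference of 1.14 ± 0.35 (edgeR adjusted p = 0.0627), and H2-T23, with -0.60 ± 0.18 (edgeR adjusted p = 0.0596). Both passed without the shared barcodes, at 1.16 and -0.59 (edgeR adjusted p = 0.037 and 0.0476). H2-K1 (0.08 ± 0.21), H2-D1 (-0.07 ± 0.13) and Psmb10 (0.02 ± 0.10) had differences smaller than their errors. Psmb8 (1.02 ± 0.44, edgeR adjusted p = 0.228), B2m (-0.19 ± 0.09, edgeR adjusted p = 0.282) and H2-Q4 (-0.88 ± 0.60, edgeR adjusted p = 0.531) did not pass, and Tap1 and Psmb9 were too sparse to be tested.

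Homeostatic satellite cells against the myogenic-like cells of total muscle compare sorted with unsorted cells of uninjured muscle. In total muscle H2-K1 stood at 398 and 267 CPM and H2-D1 at 629 and 689 CPM, below the homeostatic libraries in each case. Of 9 members tested by edgeR, these 2 were higher in the sorted cells, where 3.94% of all genes were higher and 3.78% lower. H2-D1 differed by 0.78 ± 0.13 on the log2 scale (edgeR adjusted p = 0.000221). H2-K1 differed by 0.67 ± 0.17 (edgeR adjusted p = 0.0156), and this call was lost with DESeq2 (0.64, adjusted p = 0.119) and without total muscle 2 (0.43, edgeR adjusted p = 0.325). The members' median was 0.67, against 0.04 over all genes.

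Of the other members, 7 were tested and did not pass, and Psmb9 was under the filter and not tested. H2-Q4 was at 258 and 275 CPM in total muscle (0.34 ± 0.16, edgeR adjusted p = 0.244) and B2m at 766 and 639.9 CPM (-0.13 ± 0.15, edgeR adjusted p = 0.677). Tap1 was at 3.68 and 10.4 CPM (1.71 ± 0.57, edgeR adjusted p = 0.0749), from 1 and 4 UMIs. H2-T23 was at 11 and 13.0 CPM, close to the sorted cells (-0.06 ± 0.55). Tap2 (0.60 ± 0.36, edgeR adjusted p = 0.372), Psmb8 (0.73 ± 0.52, edgeR adjusted p = 0.472) and Psmb10 (1.08 ± 0.80, edgeR adjusted p = 0.484) had wide errors. Psmb8, Psmb9 and Psmb10 rest on 1 to 5 UMIs in each of these sums, which limits what can be detected. From the pathway lists, the activator Psme2 (1.05 ± 0.30, edgeR adjusted p = 0.031) and Nfkb1 (1.22 ± 0.15, edgeR adjusted p = 6.11e-06) were higher in the sorted cells and the core subunit Psmb2 lower (-0.52 ± 0.16, edgeR adjusted p = 0.0487).

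Markers of other cell types differed between the myogenic-like sums of the groups, in both directions. Of 10 endothelial markers, 9 were detected in each total muscle sum, at 279.8 CPM in both (Kdr at 0 in the first and Tie1 in the other). They summed to 27.5 and 45.1 CPM in the homeostatic (7 and 9 detected), 7.09 and 6.99 in the injured (5 and 4 detected, Kdr at 0 in both) and 15.3 CPM in the myoblast sums. The 9 macrophage markers (5 and 4 detected in total muscle, Csf1r at 0 in both) summed to 69.9 and 18.1 CPM in total muscle, 12.9 and 9.74 in homeostatic and 10.1 and 8.23 CPM in injured sums. B and T cell markers lay between 0 and 25.9 CPM in total muscle and under 3.3 CPM in the sorted sums. Of 7 T or NK markers, 0 and 2 were detected in total muscle, and Cd3d, Nkg7 and Klrd1 were at 0 in both. Fibro-adipogenic markers summed to 464 and 526 CPM in total muscle, 263 and 265 in homeostatic and 84.8 and 66.3 in injured sums. Mural markers ran the other way between the uninjured groups, at 36.8 and 64.8 CPM in total muscle and 115 and 102.6 in homeostatic sums, and were at 0.450 and 0.621 in injured sums. Erythroid markers (110.4 and 25.9 CPM in total muscle, 298 and 79.8 in homeostatic sums) and lymphatic endothelial markers (55.2 and 31.1, then 60.4 and 51.3 CPM) were not higher in total muscle as a group. The part of these cells in the differences was not tested.

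Primary myoblasts were compared with both sorted groups. With 1 myoblast library, the fit takes its spread from the sorted groups, and both comparisons share libraries with the injury comparison. Against homeostatic cells, 9 members were lower and Psmb10 higher, where 32.2% of 12410 genes were lower and 39.2% higher. With no scaling 25.2% were lower and 47.7% higher. The members' median was -3.38, against 0.19 over all genes. H2-Q4 differed most (-10.87 ± 0.31, edgeR adjusted p = 6.39e-15), then H2-K1 (-5.70 ± 0.24), H2-D1 (-5.32 ± 0.27) and H2-T23 (-5.14 ± 0.32). Tap2 (-3.52 ± 0.24), Psmb9 (-3.24 ± 0.58), Psmb8 (-3.06 ± 0.30) and Tap1 (-2.34 ± 0.28) lay between these and B2m. B2m differed by -1.80 ± 0.22 and Psmb10 by 1.74 ± 0.24 (edgeR adjusted p = 3.06e-06). All 7 genes of the loading and trimming list were lower and all 3 constitutive subunits higher, except that Canx did not pass with no scaling (-0.33, edgeR adjusted p = 0.111), nor Psmb6 (0.39, adjusted p = 0.0675) and Psmb7 (0.42, adjusted p = 0.131) with DESeq2.

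Against injured cells, 7 members were lower in myoblasts and 1 higher, where 25.9% of all genes were lower and 33.7% higher. With no scaling 13.8% were lower and 59.2% higher. H2-T23 differed most (-6.93 ± 0.30, edgeR adjusted p = 8.94e-13), followed by H2-Q4 (-4.29 ± 0.35, edgeR adjusted p = 6.02e-09). Psmb10 was also lower (-1.84 ± 0.21, edgeR adjusted p = 4.53e-07), as were H2-D1 (-1.38 ± 0.22) and H2-K1 (-1.26 ± 0.20). Tap1 was higher (2.69 ± 0.43, edgeR adjusted p = 3.22e-05), and 3.78 without injured 1. The 2 genes that rose after injury were thus lower in cultured than in injured cells, H2-T23 to below the homeostatic level and Psmb10 to between the levels.

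Some calls in this comparison were close. Tap2 (-0.69 ± 0.25, edgeR adjusted p = 0.023) and Psmb8 (-0.76 ± 0.32, edgeR adjusted p = 0.0469) passed, but neither did with DESeq2 (adjusted p = 0.0511 and 0.146), without either injured library, or with no scaling. B2m did not pass (0.15 ± 0.20, edgeR adjusted p = 0.535). With no scaling, which moved the median of all genes from 0.19 to 0.90, B2m was higher by 0.86 (edgeR adjusted p = 0.000291). Psmb9 did not pass (-1.26 ± 0.61, edgeR adjusted p = 0.0815) and was 0.41 without injured 1. The constitutive subunits Psmb5 (0.27 ± 0.18), Psmb6 (-0.08 ± 0.18) and Psmb7 (0.10 ± 0.20) did not pass, with edgeR adjusted p of 0.213, 0.713 and 0.689. With no scaling all 3 were higher, Psmb5 by 0.98, Psmb6, whose sign turned, by 0.63 and Psmb7 by 0.81 (edgeR adjusted p = 3.41e-05, 0.00209 and 0.000503).

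The cell types of total muscle place these levels. Of 11 types, endothelial-like cells had the highest mean level for 7 members, T- or NK-like cells for H2-K1 and Psmb9, and B-like cells for Psmb10. The libraries of the first and second types overlapped for H2-D1 (macrophage-like second), Tap1 (glial-like), Psmb8 (B-like) and Psmb10 (T- or NK-like). They were apart for the other members. Myogenic-like cells had the lowest level for 5 members (H2-D1, B2m, Tap1, Psmb8 and Psmb10) and the lowest or next to lowest for 7. In 1 edgeR fit over summed cells with library as a block, 72 of 100 pairs of a member and a type were higher than in myogenic-like cells and 3 were lower. Of all genes tested, 9.22% (glial-like) to 28.7% (endothelial-like) were higher by type, and 10.3% (glial-like) to 20.3% (B-like) were lower. The background of these calls depends on scaling: with none, the share of all genes that were higher went from 26.0% to 20.5% in fibro-adipogenic-like, 21.2% to 17.8% in macrophage-like, 19.6% to 15.8% in tenocyte-like, 9.22% to 13.5% in glial-like and 21.4% to 17.9% in myofibre-like cells. The share that were lower went from 12.4% to 17.9%, 15.8% to 20.6%, 10.4% to 15.3%, 10.3% to 5.21% and 16.4% to 22.1% in the same types.

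In endothelial-like cells (407 and 506 cells) all 10 members were higher, where 28.7% of 8392 genes were higher and 16.6% lower. B2m stood at 5701 to 5852 CPM there, against 639.9 to 766 in myogenic-like cells (log2 difference 3.16 ± 0.22, edgeR adjusted p = 1.27e-13). H2-D1 stood at 3970 to 4014 CPM (2.71 ± 0.20) and H2-Q4 at 1683 to 1771 CPM (2.81 ± 0.24). Tap1 stood at 189.5 to 226 CPM (4.84 ± 0.38), and Psmb8 at 320.4 to 322 CPM (4.83 ± 0.39). Of the constitutive subunits, Psmb7 was lower in endothelial-like cells (-0.61 ± 0.22, edgeR adjusted p = 0.0226), and Psmb5 (0.14 ± 0.28) and Psmb6 (-0.41 ± 0.19) did not pass. Psmb8 made up 80.7% and 78.8% of the Psmb8 and Psmb5 UMIs in endothelial-like cells, 48.7% and 43.2% in fibro-adipogenic-like cells, and 12.5% (2.66% to 32.4%) and 13.5% (4.54% to 28.8%) in myogenic-like cells.

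In immune cells, 9 members were higher in T- or NK-like cells (22.7% of all genes higher) and 9 in B-like cells (22.9% higher, 20.3% lower), where H2-Q4 was lower (-0.70 ± 0.26, edgeR adjusted p = 0.0266). Macrophage-like cells had 8 higher (21.2%). H2-K1 was highest in T- or NK-like cells at 1743 to 2021 CPM, apart from endothelial-like cells at 1672 to 1713 CPM. Psmb9 stood at 121 to 132 CPM in T- or NK-like, 120.3 to 121 in B-like and 61.5 to 67.2 in endothelial-like cells. In myogenic-like cells Psmb9 and Psmb10 rest on 3 UMIs each, so counting ratios are given. Psmb9 was 27.9 times as high (9.38 to 137) in T- or NK-like and Psmb10 18.3 times as high (6.13 to 90.1) in B-like cells.

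By median rank over the members, with 1 the highest, the remaining types lay between immune cells (3 to 4.5) and myogenic-like cells (10.5). Single members departed from this: for H2-Q4, mural-like, tenocyte-like and fibro-adipogenic-like cells had higher means than every immune type. Fibro-adipogenic-like cells (603 and 753 cells), the connective tissue progenitors of muscle, had 9 members higher (26.0% of all genes higher), among them B2m at 1980 to 2079 CPM (1.80 ± 0.21). Mural-like cells, which wrap small vessels, had 6 higher (16.8%) and the next highest H2-Q4 at 733 to 825 CPM, and no Psmb9 UMI (a ratio to myogenic-like cells of at most 6.21 by the 95% counting interval). Tenocyte-like cells had 4 higher (19.6%), with H2-K1 at 266 to 308 CPM overlapping myogenic-like cells (0.06 ± 0.20). Glial-like cells (21 and 20 cells) had 3 higher (9.22%) and H2-K1 lower at 138 to 236 CPM (-1.35 ± 0.32, edgeR adjusted p = 0.00264). Myofibre-like cells had 7 higher (21.4%). Epithelial-like cells had 7 higher (14.4% of all genes higher, 12.4% lower) and H2-Q4 lower (-1.13 ± 0.30, edgeR adjusted p = 0.00494).

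Several of these calls depend on how cells were assigned. When clusters replaced the marker gate, the myofibre differences turned over for B2m (-1.52), H2-K1 (-1.96) and H2-D1 (-1.91), and H2-K1 in glial-like cells was higher (1.14). With a stricter gate, which left 10 and 17 mural-like and 4 and 4 epithelial-like cells, H2-K1 in mural-like cells was -1.01 and no longer passed. The endothelial, B, T or NK and macrophage calls kept their sign in every alternative.

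**Figure D5:**
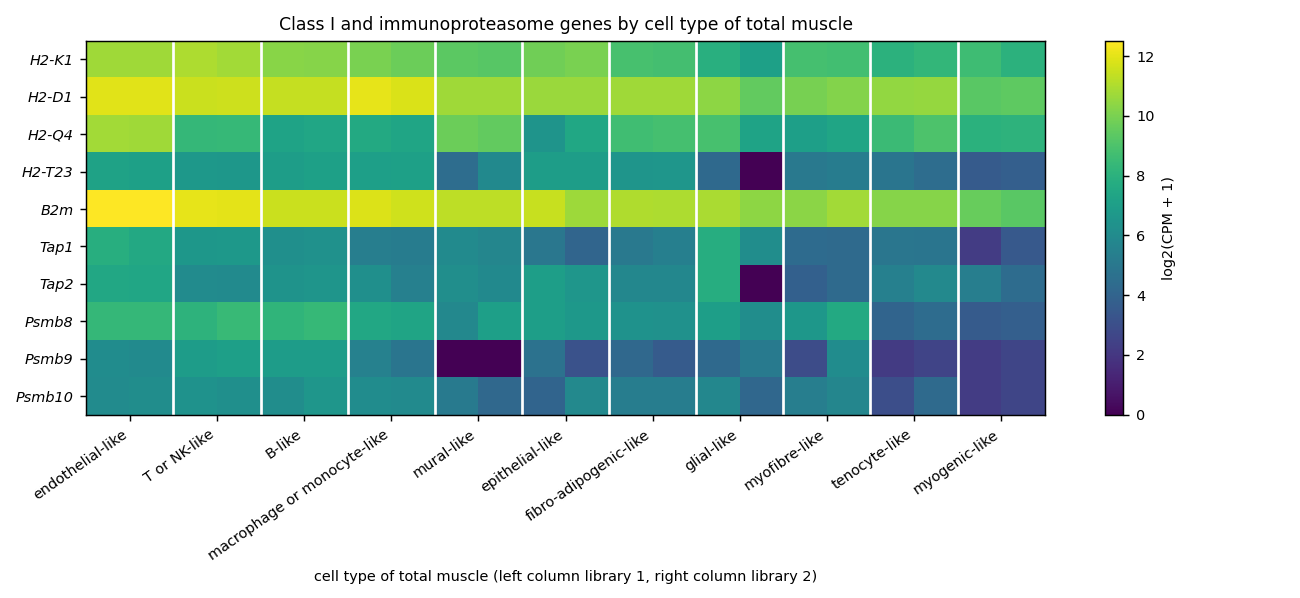
Log2(CPM + 1) of the 10 members (rows) in 11 cell types of total muscle, with library 1 in the left and library 2 in the right column of each type, ordered by the median rank of the type. Endothelial-like cells lead and myogenic-like cells come last. H2-Q4 is high in endothelial-like and mural-like cells and low in epithelial-like, myofibre-like, B-like and macrophage-like cells.

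Across the 11 types the members shared an order to differing degrees. The correlation of a member's log2 level with the mean of the other members was 0.93 for B2m, 0.90 for H2-D1, 0.84 for Psmb8, 0.82 for H2-K1 and 0.81 for Psmb10. It was 0.20 for H2-Q4, the lowest. The points are types of the same 2 libraries, so no p is given. Among 5748 other genes, those most like the mean of the members were Anp32a (r = 0.88), the activators Psme2 (0.88) and Psme1 (0.88), the class I gene H2-Q7 (0.87), Casp8 (0.85), Prr13 (0.85), H2-T22 (0.84) and Samhd1 (0.83). H2-Q7 and H2-T22 each share a near-identical 3′ stretch with H2-K1 and H2-D1, and the part of shared reads in their likeness was not tested.

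Cell by cell, after each cell was thinned to 1000 UMIs, B2m was seen in 98.0% of endothelial-like cells in both libraries. It was seen in 48.1% (36.5% to 59.7%) and 45.0% (35.4% to 54.8%) of myogenic-like cells of total muscle, 43.1% and 52.3% of homeostatic, 13.2% and 11.7% of injured and 23.4% of myoblast cells. Unthinned, the shares were 64.3% and 68.7% in homeostatic, 63.4% and 31.4% in injured and 97.5% in myoblast cells, which differ in depth. Psmb10 was seen in 1.27% and 1.0% of thinned homeostatic cells, 10.1% of injured cells in both libraries and 4.28% of myoblasts. In injured cells an even spread of the UMIs over the cells would give 10.1% and 9.98%. Thinning left out 227 and 269 homeostatic and 45 injured 2 cells that were shallower.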

How the data were processed

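The deposited files hold raw UMI counts per gene and cell, made by the authors with Cell Ranger 2.2.0 on mm10, per the submitters' processing notes, which also name bcl2fastq 2.17.1 and Seurat 2.3.4; how empty droplets or doublets were removed is not given in the sources used here. Libraries were made with a droplet 3' kit, per the labels. Of 15474 barcodes, 15267 with at least 200 genes and at most 10% mitochondrial UMIs were kept, and no doublet caller was run. Each cell went to the marker list with the largest share of its markers detected (at least 2, or 3 for erythroid); ties were left out, and the myofibre list did not compete in sorted or cultured libraries. The stricter gate asked for 3 markers and no competing list. Lists covered myogenic, fibro-adipogenic, endothelial, lymphatic endothelial, B, T or NK, macrophage or monocyte, neutrophil, mural, tenocyte, glial, myofibre, erythroid and epithelial cells. Types with at least 20 cells in both total muscle libraries were tested.

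Counts were summed per library and type. They were tested with edgeR 4.0.16 in R 4.3.3 (TMM, filterByExpr, quasi-likelihood, Benjamini-Hochberg over all genes tested, threshold 0.05), with SE taken as the log2 change over the square root of F. Genes under the filter were not tested. DESeq2 1.42.0, no scaling, no filter, thinned cells, a stricter gate, Leiden clusters (scanpy 1.11.5), all cells, GC-rich barcodes and left-out libraries were alternatives. Near-identical copies were found with blastn 2.17.0 over the last 300 bases (at least 95% identity over 90 bases). Promoters come from RefSeq, where Tap2 had no entry and is named only. Depth per library ran from 3319283 to 114382567 UMIs, and intervals are 95% and cover counting error only. By the naming rule all 10 members belong to every comparison, but for cell types most are given only as counts and in the heat map; pathway lists are given as counts, with values for the few most abundant and any called gene of short lists. The members and lists were chosen with earlier results of these data known. The count test was tried on simulated data.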

Additional observations from a re-analysis of the deposited data

How the results depend on the processing

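All 154 alternative values of the members after injury, and all 129 for myoblasts against homeostatic cells, kept their sign and side of the threshold; Psmb9 was not tested in thinned cells or GC-rich barcodes. Of 100 values for homeostatic cells against total muscle, 78 did so, of 129 for myoblasts against injured cells 106, of 499 for cell types 450, and of 36 for Myog 33. Members higher in homeostatic cells than in total muscle numbered 1 with DESeq2, 1 in thinned cells, 0 with all cells in place of the gated ones, and 1 to 2 with a library left out. With all cells, which sets sorted cells against the whole tissue, 10 were lower there: H2-K1 -0.38, H2-D1 -0.66, H2-Q4 -0.47, Tap1 -1.09, Tap2 -0.50, Psmb8 -2.48 and Psmb10 -1.99 had turned their sign. In that comparison B2m was 0.12 with the stricter gate and -0.26 to 0.047 with a library left out. Psmb8 was -0.092 with the stricter gate, and H2-T23 was 0.033 with no scaling, 0.050 with no filter, 0.12 with the stricter gate and -0.14 to 0.12 with a library left out. For myoblasts against injured cells, 2 members were higher with no scaling, where Tap2 was 0.021; B2m was -0.025 with all cells and -0.031 (without injured 2) to 0.40 with a library left out, and Psmb9 -1.88 to 0.41 (without injured 1). For cell types, 42 pairs were higher with the stricter gate, with fewer cells and 81 pairs tested, and 6 were lower with Leiden clusters, where myofibre values turned for B2m (-1.52), H2-K1 (-1.96), H2-D1 (-1.91), Psmb9 (-5.10), Psmb8 (-6.77) and H2-T23 (-0.21), and glial H2-K1 was 1.14. The stricter gate gave -1.01 for H2-K1, -5.41 for Psmb8 and -0.15 for H2-Q4 in mural-like cells, and -0.29 for B2m and -0.13 for Tap2 in epithelial-like cells. Without the shared barcodes, 1 member was higher and 1 lower in cells with a Myog UMI, and Psmb10 was -0.078. Beyond the constructions named, the cause of these changes was not tested. Samples share only a replicate number (correlation of same-numbered deviations -0.032 and 0.035); with a replicate block 2 members were higher and 8 lower after injury, and 2 and 0 in homeostatic cells against total muscle. With no replicate block, 73 cell type pairs were higher and 3 lower. Sums under 10 UMIs in total muscle limit Tap1, Psmb8, Psmb9, Psmb10 and H2-T23.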
